A study of Mus musculus with 12 samples.

Results

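Of 12 single mouse embryos, the 4 with the most adult globin RNA were compared with the 4 with the least. The embryos were selected on measured globin: they were ranked by the mean of their deposited log2 values for Hba-a1 and Hbb-bs, the main adult alpha-globin and beta-globin genes of this strain. That left 4 embryos between the classes, which entered no class comparison and are shown beside it. The question was which autosomal transcripts follow these globins, which the ranking takes as a sign of blood from the mother. Mother and embryo are not distinguished in these data, so the source of any RNA was not tested. All 12 were untreated wild-type C57BL/6J embryos of embryonic day 7.0, collected one by one, 5 female and 7 male from 7 litters, for a study of fetal sex and of malformations caused by alcohol during gastrulation. No embryo here had been given alcohol. Each class held 2 females and 2 males as labelled, so sex was balanced between the classes.

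Haemoglobin of adult mice is made of alpha-globin and beta-globin chains, and the RNA for both is carried by young red cells that still make protein. A gastrulating embryo has no circulating adult-type blood: its own first red cells arise later in the yolk sac and start with the embryonic globins Hba-x, Hbb-y and Hbb-bh1. Around the implanted embryo lie trophoblast cells of the embryo, blood spaces filled by the mother and the decidua, the uterine stroma that the mother changes for pregnancy.

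The globin genes are shown because each chain has a near-identical copy, which bears on how reads could be assigned between them. The coding sequences of Hba-a1 and Hba-a2 differ at 1 of 429 bases (C381T, counted from 1 at the first coding base, Hba-a1 base first), and those of Hbb-bs and Hbb-bt at 1 of 444 (C417T, Hbb-bs base first). The lines give 50 coding bases around each difference, 5′ to 3′, from the GENCODE M21 transcripts of GRCm38, with the differing base in capitals.
Hba-a1: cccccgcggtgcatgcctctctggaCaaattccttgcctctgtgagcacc
Hba-a2: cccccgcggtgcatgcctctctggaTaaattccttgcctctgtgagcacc
Hbb-bs: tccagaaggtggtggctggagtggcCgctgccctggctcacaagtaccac
Hbb-bt: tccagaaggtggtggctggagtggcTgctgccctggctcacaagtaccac
The longest stretch shared by the transcripts was 415 bases within the alpha pair and 430 bases within the beta pair, and reads were 100 bases long, so the split of reads within a pair is uncertain. Hba-a1 lies at chr11:32283511-32284465 on the plus strand and Hba-a2 at chr11:32296489-32297298. Hbb-bs lies at chr7:103826534-103828096 on the minus strand and Hbb-bt at chr7:103812524-103813996. These 4 genes chose the embryos or share reads with those that did, so their values are a description and were not tested.

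Values are normalized counts, regained from the deposited log2 values, and always come in the same order. The globin-rich embryos are female 1, male 5, male 3 and female 5. The middle embryos are female 4, male 2, male 4 and male 7. The globin-poor embryos are female 2, male 1, male 6 and female 3.

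Hba-a1 was at 3412, 3254, 3062 and 2794 in the globin-rich embryos, at 2960, 1772, 1672 and 1234 in the middle embryos, and at 1081, 679, 509.99 and 142 in the globin-poor embryos. Hbb-bs was at 2125, 1976, 1896 and 1858, then at 1656, 1172, 1145 and 989.9, and then at 664, 565, 322 and 158. The 4 globin-rich embryos lay close together, and the globin-poor ones were spread widely. The upper boundary was narrow: the mean deposited log2 value was 12.17 in female 5, the last globin-rich embryo, and 12.16 in female 4, the first middle embryo. At the lower boundary it was 11.67 in male 7, outside, and 11.53 in female 2, inside. Ranking by normalized count gave the same order.

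The copies had the same order of classes. Hba-a2 was at 1049 to 1176 in the globin-rich embryos and at 60.6 to 393 in the globin-poor ones, and Hbb-bt was at 319.9 to 399 and at 5.23 to 156. The ratio of Hba-a1 to Hbb-bs was between 1.504 and 1.65 in the globin-rich embryos and between 0.899 and 1.63 in the globin-poor ones. In the middle embryos it was between 1.25 and 1.79, and the highest of all 12 was that of female 4. The 4 genes together made up 0.00629% to 0.00738% of all normalized counts in the globin-rich embryos and 0.00039% to 0.00237% in the globin-poor ones, so they were minor transcripts in every library.

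**Figure D1:**
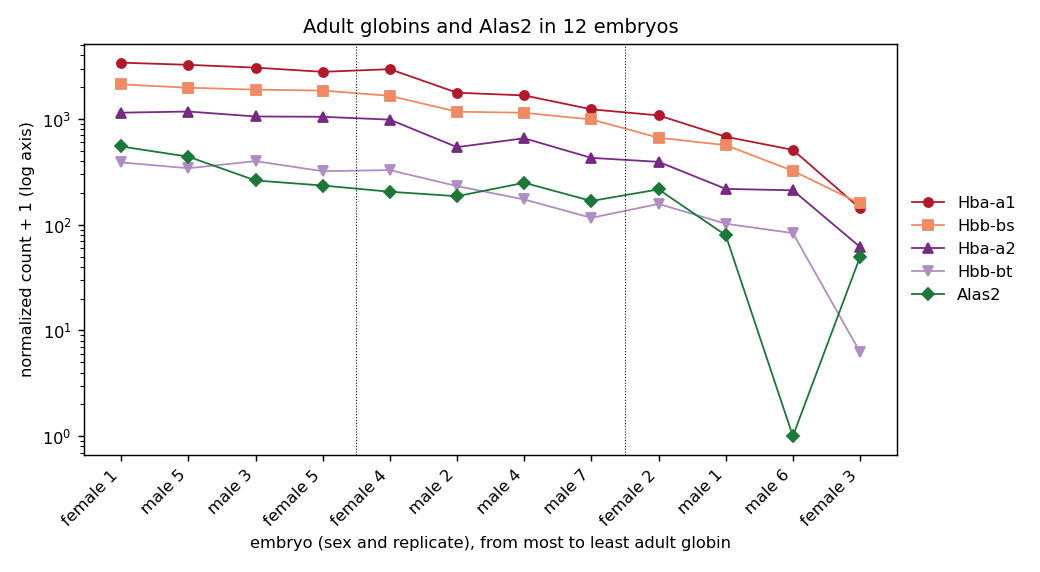
Normalized counts plus 1, on a log axis, of the adult globin genes and of Alas2 in each of the 12 embryos, in order of rank from most to least adult globin. Hba-a1 runs from 3412 in female 1 to 142 in female 3, and female 4, the first middle embryo, is at 2960, above the 2794 of female 5.

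The embryonic globins were nearly absent. Hbb-y, Hbb-bh1 and Hbb-bh2 were at 0 in all 12 libraries, where 3 fragments would have been 2.49 to 3.40 normalized counts. Hba-x was at 0 in all but female 5 and male 4. In the list of embryonic globins and blood progenitors, 0 of 8 tested genes stood apart between the classes. That is near the shares of all autosomal genes tested, 1.99% with the globin-rich embryos all above and 1.27% with them all below. Kdr, the receptor that marks blood and vessel progenitors, was at 4231 to 6704 in the globin-rich and 1775 to 6576 in the globin-poor embryos, and Etv2, a transcription factor they need, was at 942 to 2817 and 226 to 3054. Runx1, which blood progenitors need, was at 167 to 944 and 438 to 1042.

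Alas2, the red-cell enzyme that starts haem synthesis, was higher in the globin-rich embryos as well. It was at 549, 439, 261 and 234 in the globin-rich embryos, at 204, 185, 248 and 167 in the middle embryos, and at 215, 78.6, 0 and 48.6 in the globin-poor embryos. Every globin-rich embryo lay above every globin-poor one. Alas2 is X-linked (chrX:150547375-150570638) and so was outside the comparison of autosomal genes. An exact two-sided permutation test over the 70 splits of 8 embryos gave p = 0.0286. This is the smallest it can give and only restates that the classes did not overlap. The test was not planned, was run for Alas2 alone and was not adjusted for the other red-cell genes, so it is a description.

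The other red-cell genes did not stand apart in the direction of the globins. Of 30 listed genes, 14 autosomal ones besides the 4 globins passed the filter on low values. None of the 14 had its globin-rich embryos all above the globin-poor ones, against 1.99% of all autosomal genes tested, and their median log2 difference was 0.03. A count of 0 among 14 genes is near that share and is not a result about the list. The anion exchanger of the red-cell membrane, Slc4a1, was at 0 in 2 globin-rich and 3 globin-poor embryos and never above 40.9. Ferrochelatase, Fech, which completes haem, was at 3997 to 6367 and at 4340.4 to 5648, and carbonic anhydrase 2, Car2, at 43029 to 47130 and at 40133 to 47707. Bpgm, which makes the red-cell regulator of oxygen release, was at 4649 to 5782 and at 4441 to 5559. Fech, Car2 and Bpgm were above Hba-a1 in every library, and whether a part of their RNA came with the globins was not tested. Other members overlapped as well, with log2 differences of -1.23 for Car1, -0.34 for beta-spectrin Sptb, -0.24 for Rhd, -0.01 for the iron importer Slc25a37, 0.12 for the transcription factor Klf1, 0.36 for the erythropoietin receptor Epor and 0.86 for Ermap. The genes Rhag, Kel, Hemgn and Cldn13 were at 0 in all libraries. Gypc, a membrane glycoprotein, was the 1 member that stood apart, and in the other direction: 277, 267, 108 and 248 against 287, 336, 352 and 304, with a limma adjusted p of 0.904. X-linked Gata1, a transcription factor of red cells and megakaryocytes, overlapped between the classes, at 482 to 1057 and 314 to 724.

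No autosomal gene passed the main test. Of 16372 genes tested with limma on log2(normalized count + 1), 0 reached an adjusted p of 0.05 (0%). The smallest adjusted p was 0.0973. At an unadjusted p under 0.05, 630 genes were higher with much globin (3.85%) and 336 were lower (2.05%), together 966 (5.9%). A looser description is used below: a gene stands above where all 4 globin-rich embryos exceed all 4 globin-poor ones, which held for 326 genes (1.99%), and stands below in the reverse case, which held for 208 (1.27%). These shares are the background against which each gene list is read. The count of calls moved with the model: with sex as a covariate 16 genes were higher and 0 lower past an adjusted p of 0.05, and without the filter 6 were higher and 2 lower. The 16 were Psg22, Psg29, Prl3d1, Prl7a1, Prl8a2, Plet1, Anxa2, Procr, Adm, Lgals1, Cts7, Pfpl, Gm2a, Tfap2c, Hpcal4 and Gjb5. The rank was set by a measured value, so any difference is an association with globin and not an effect of a treatment.

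The genes that stood above differed by more than those that stood below. Among genes with a mean of at least 100, 246 stood above with a median log2 difference of 0.55, and 163 stood below with a median of -0.34. A log2 difference beyond 1 was found for 83 of the first and 7 of the second. In bulk RNA of a whole embryo, fewer cells of a type and less RNA per cell cannot be told apart, which applies to each list that follows.

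The libraries of both classes were deep and alike. Each embryo gave an estimated 83 to 114.4 fragments in units of 1000000, with 85.4 to 114.4 in the globin-rich and 83 to 97.1 in the globin-poor class. The globin-rich embryos had 18643 to 19290 genes detected, and the globin-poor ones 17826 to 18958. Mitochondrial genes made up 0.492% to 0.647% and 0.544% to 0.765% of counts.

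The genes with the smallest p-values, a list added after the values were seen, include several of trophoblast. Tfap2c, a transcription factor needed for trophoblast, lies at chr2:172549593-172558622. It was at 2961, 4888, 2737 and 2711 in the globin-rich embryos, at 1561, 2954, 3236 and 1760 in the middle ones, and at 1077, 1107, 1093 and 794 in the globin-poor ones. The classes were well apart, with means of 3324 ± 1049 (SD, n = 4) and 1018 ± 149.6 (SD, n = 4). The log2 difference was 1.67 ± 0.20 (SE) with a limma adjusted p of 0.0973. Gjb5, a gap-junction protein gene at chr4:127354809-127358181, was at 845, 1549, 743 and 1270.1, then 170.2, 722, 1199.8 and 360.4, and then 224, 109, 236 and 285. The middle embryo female 4, whose globin level was nearly that of the globin-rich class, lay within the globin-poor range. The log2 difference was 2.38 ± 0.34 (SE) with a limma adjusted p of 0.123.

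Gata2, a transcription factor of trophoblast giant cells and blood progenitors, was at 1552 to 3102 in the globin-rich and 758 to 1054 in the globin-poor embryos, with female 4 at 769. Plet1, a surface protein of extraembryonic ectoderm and ectoplacental cone, was at 2804 to 6142 and at 870.2 to 2165, with male 2, a middle embryo, highest of all at 10886. Mvp, the major vault protein, and Anxa2, a membrane-binding protein, also stood above, with log2 differences of 0.86 ± 0.14 (SE) and 1.25 ± 0.22 (SE). All 4 of these had limma adjusted p-values between 0.224 and 0.244.

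Low-level genes made up the rest of that list. Hpcal4, a calcium sensor known from brain, Sult1e1, an oestrogen sulfotransferase, and Il2rb, an interleukin receptor chain of lymphoid cells, were at 0 in all 4 globin-poor embryos. In the globin-rich embryos they were at 55.6 to 122, at 25.8 to 110.4 and at 23.9 to 239. Against a floor of 3 fragments per library, or 3.40 normalized counts, their means were at least 22.0-fold, 20.98-fold and 25.7-fold higher. Of these, Sult1e1 was present in all 4 middle embryos, while Hpcal4 and Il2rb were each at 0 in 2 of them. Hpcal4 and Il2rb therefore passed the filter, 10 normalized counts in at least 4 embryos, only through the globin-rich class. Their p-values and folds are a description for that reason.

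**Figure D2:**
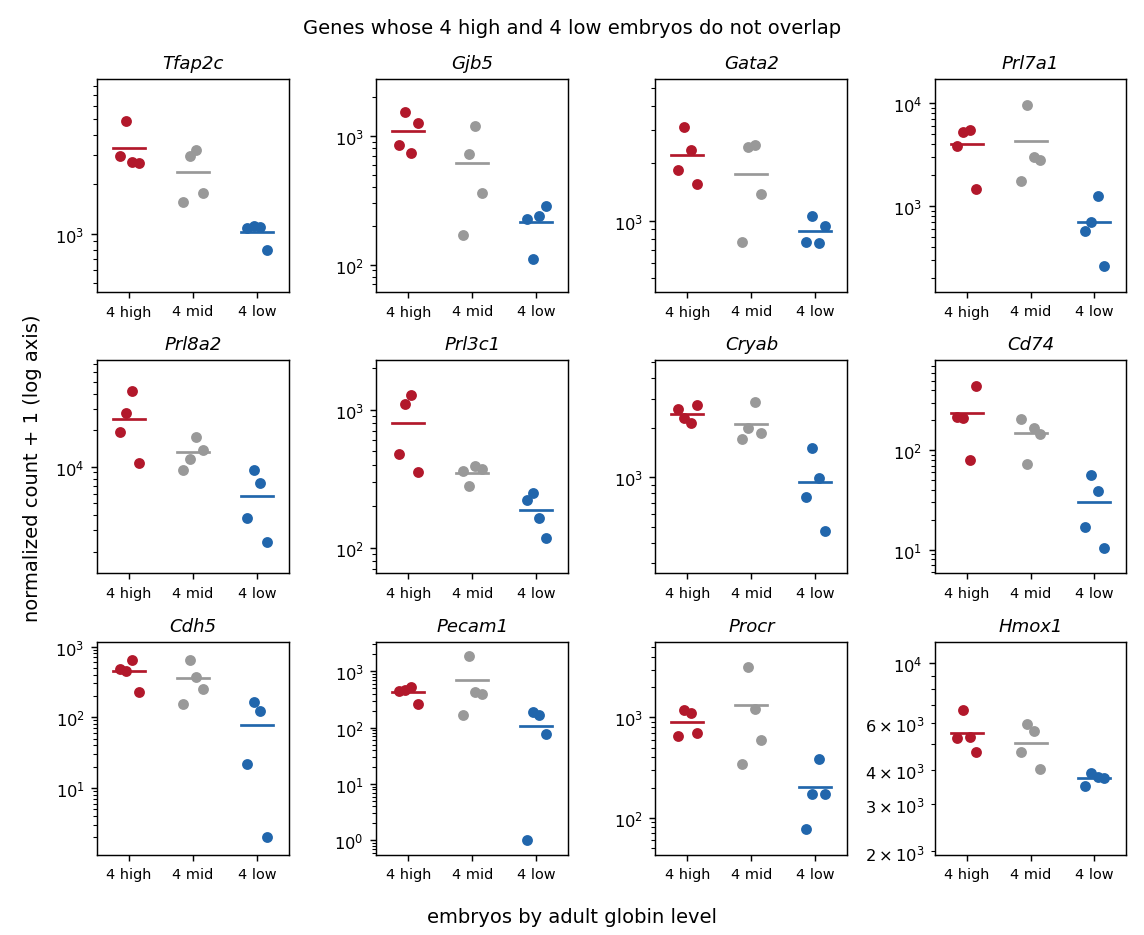
Normalized counts plus 1 of single genes in each embryo, grouped as most, middle and least adult globin, on a log axis; points are embryos and bars are class means. Tfap2c, Gjb5 and Cryab have globin-rich and globin-poor embryos that do not overlap, and the middle embryos spread from 170.2 to 1199.8 for Gjb5.

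The trophoblast list leaned to higher values in globin-rich embryos. Of 18 tested genes, 17 had a positive log2 difference, where 51.5% of all autosomal genes did. Of the 18, 4 stood above, Prl4a1, Prl6a1 and Krt19 among them, against 1.99% of all autosomal genes tested. None passed the adjusted test, and 12 were higher at an unadjusted p under 0.05. The median log2 difference was 1.06, where that of all genes was 0.01. The summed level of the list was 108957 to 176248 in the globin-rich embryos and 92049 to 112597 in the globin-poor ones, and it was highest in the middle embryo male 2, at 199550.5.

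Prl4a1, a prolactin-like hormone of the placenta, was at 2721, 3019, 1968 and 1037 in the globin-rich embryos, then 625, 1562, 1876 and 1854, and then 102, 452, 983 and 108. The ranges nearly touched, between female 5 at 1037 and male 6 at 983. Krt19, a keratin of simple epithelia, was at 5346 to 11503 and at 3334 to 5090, a log2 difference of 0.94 ± 0.22 (SE). The 2 most abundant members, Krt8 and Krt18, overlapped, with log2 differences of 0.20 and 0.11. Prl3d1, placental lactogen of trophoblast giant cells, overlapped too, at 7357 to 35387 and at 1336 to 10646, and male 2 again was highest at 54012.

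In the placental prolactin family, listed after its values were seen, all 17 tested genes out of 25 had a positive log2 difference, with a median of 2.59. Of the 17, 7 stood above, against 1.99% of all autosomal genes tested. Of these 7, Prl4a1 and Prl6a1 are also in the trophoblast list, and Prl8a2 and Prl3c1 in the decidual stroma list below, so the family is not a separate count. The summed level was 23616 to 95333 in the globin-rich embryos, 23629 to 90929 in the middle ones and 4608 to 24159 in the globin-poor ones, so that even the sums overlapped. Prl7a1 was at 1466 to 5512 and at 265 to 1269, and Prl2a1 at 254 to 556 and at 24.03 to 134. Prl8a9 was at 606 to 2019 and at 76.6 to 584. Other placental families, also listed after their values were seen, gave like counts. Of 7 Psg and Ceacam genes 2 stood above, and of 7 Serpinb9 genes 4, against 1.99% of all genes. Members of these families are close copies, so reads could be split between them in either class. Psg22, a pregnancy-specific glycoprotein, was at 385 to 2239 and at 55.4 to 359. Serpinb9, a granzyme inhibitor, was at 403 to 696 and at 135 to 321, its relative Serpinb9b at 814 to 1370.1 and at 253 to 648, and Serpinb9c at 33.3 to 183 against 0 in 3 globin-poor embryos and 30.0 in female 3. Cts7, a placental cathepsin, was at 1313 to 5649.8 and at 150.3 to 1216.

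Other genes that passed the adjusted threshold only with sex as a covariate stood above as well, except Psg29 and Prl3d1, which overlapped. Adm, the vessel-widening peptide adrenomedullin, was at 16921, 25976, 23057 and 7677, then 7239, 39527, 16445 and 13153, and then 1736, 5098, 5816 and 1366. Procr, the receptor of activated protein C on trophoblast giant cells and endothelium, was at 652 to 1178 and at 75.9 to 384, with male 2 at 3161. Male 2 exceeded every globin-rich embryo in both genes. Lgals1, a galectin of decidua and trophoblast, was at 3671 to 8375 and at 1739 to 3443, Gm2a, a lysosomal activator protein, at 4526 to 11107 and at 1457 to 4202, and Pfpl, a perforin-like gene, at 2326 to 7763 and at 234 to 2270.

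Of the decidual stroma list, 3 of 17 tested genes stood above, against 1.99% of all autosomal genes tested. These were Prl8a2, Prl3c1 and Cryab, none past the adjusted test. A positive difference was found for 14 of the 17, where 51.5% of all genes had one. Prl8a2, the decidual prolactin-related protein at chr13:27345673-27354216, was at 19292, 27880, 41907 and 10831 in the globin-rich embryos, then 9389, 11630, 17745 and 13863, and then 3811, 9372, 7424 and 2397. The classes did not overlap, though female 5 at 10831 and male 1 at 9372 were close. The log2 difference was 2.15 ± 0.46 (SE) with a limma adjusted p of 0.302.

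Cryab, a small heat-shock protein that decidual cells express strongly, was at 2584, 2293, 2131 and 2733, then 1712, 1979, 2857 and 1862, and then 756, 1504, 995 and 468. Its globin-rich embryos lay close together and its globin-poor ones were spread more widely, with means of 2435 ± 273 (SD, n = 4) and 931 ± 439 (SD, n = 4). The log2 difference was 1.504 ± 0.29 (SE) with a limma adjusted p of 0.265. All 4 middle embryos lay above all 4 globin-poor ones. The third gene, Prl3c1, was at 351 to 1265 and at 117 to 251. Structural genes of stroma did not stand apart: Col1a2, a chain of collagen I, was at 529 to 1076 and at 359 to 927. The summed list was 18216 to 47579 in the globin-rich and 6408 to 14969 in the globin-poor embryos. Prl8a2 alone made up most of this sum in every globin-rich embryo, with 41907 of 47579 in male 3.

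Of 11 tested endothelium genes 3 stood above, Pecam1, Cdh5 and Esam, against 1.99% of all autosomal genes tested. A positive difference was found for 7, where 51.5% of all genes had one. Cdh5, the cadherin that joins vessel cells, was at 477, 445, 651 and 229, then 153, 639, 365 and 251, and then 20.9, 165, 122 and 1.04. Pecam1, a surface protein of vessel cells and platelets, was at 455, 462, 536 and 259, then 170.4, 1871, 427 and 392, and then 0, 186, 167 and 75.6. Both were low in every globin-poor embryo, and Pecam1 was highest in male 2, a middle embryo. The most abundant members, Egfl7 and Flt1, overlapped between the classes, and the summed list did as well, at 8343 to 10443 and 7366 to 9091.

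In the platelet list 1 of 6 tested genes stood above, against 1.99% of all autosomal genes tested. A count of 1 in so short a list is not a result about the list. The gene was Itgb3, an integrin chain that platelets and trophoblast giant cells both express. It was at 597, 681, 619.8 and 222, then 155, 2034, 803 and 431, and then 21.9, 81.3, 103 and 99.2. Male 2 lay far above the globin-rich embryos. The platelet chemokine Ppbp was at 0 in 1 globin-rich and 2 globin-poor embryos and never above 64.0, and Nrgn overlapped between the classes with a log2 difference of 0.43. The log2 difference of Itgb3 was 2.87 ± 0.55 (SE) with a limma adjusted p of 0.265.

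Most tested leukocyte genes had a positive difference, but the summed list overlapped between the classes. Of 15 tested, 3 stood above, S100a9, Cd74 and Csf1r, against 1.99% of all autosomal genes tested. A positive difference was found for 12, where 51.5% of all genes had one, and the median log2 difference was 1.06. Cd74, the invariant chain of antigen-presenting cells, was at 214, 208, 78.0 and 443, then 202, 72.5, 165 and 145, and then 16.0, 54.8, 37.5 and 9.46. All 4 middle embryos lay above the globin-poor ones, and the log2 difference was 3.00 ± 0.68 (SE) with a limma adjusted p of 0.348. S100a9, a neutrophil protein, was at 5.64 to 19.8 in the globin-rich embryos and at 0 in all globin-poor ones but male 1, at 1.01. These are levels of a few fragments. No globin-poor embryo reached the minimum of the filter for S100a9, and without the globin-rich class the gene would not have passed it. Its place among the 3 genes that stood above is a description for that reason. Csf1r, a receptor of macrophages and trophoblast, was at 299 to 508 and at 154 to 260.0. The abundant members Lcp1 and Coro1a overlapped, and so did the summed list, at 4544 to 7669 and 5742 to 6655.

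In the haem and iron list 1 of 18 tested genes stood above, against 1.99% of all autosomal genes tested. A count of 1 among 18 genes is near that share and is not a result about the list. Hmox1, the enzyme that breaks down haem, was at 5274, 6683, 5304 and 4693, then 4668, 5967, 5589 and 4055, and then 3499, 3909, 3783 and 3755. All 4 middle embryos lay above all 4 globin-poor embryos, whose values were close together. The log2 difference was 0.54 ± 0.11 (SE) with a limma adjusted p of 0.278. The ferritin chains Ftl1 and Fth1, which store iron, had log2 differences of -0.04 and 0.01, and Aco1, an iron-sensing aconitase, one of -0.10.

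None of the listed genes of the embryo's other layers stood apart. Counts of 0 in lists this short are near the shares of all genes, 1.99% above and 1.27% below. Of 14 parietal endoderm genes 0 stood above. All 14 had a positive difference, where 51.5% of all genes did, with a median of 0.60. The summed list was 72727 to 212804 and 59161 to 90465, and female 5 alone set the upper end of the globin-rich class. Its laminin chain Lamb1 was at 13532, 13071, 17759 and 47035 in the globin-rich embryos, and at 10958 to 18774 in the globin-poor ones. Col4a1, a collagen IV chain, and Sparc, a matrix protein, were likewise highest in female 5, at 37114 and 26568. The middle embryo male 4 was also high, with Lamb1 at 46852, Col4a1 at 25147, Sparc at 24705 and a summed list of 190484.

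Of 19 visceral endoderm genes 0 stood apart, 2 were positive and the median was -0.09, with apolipoprotein E, Apoe, at 99187 to 124397 and 89593 to 164717. Apoa1, another apolipoprotein, and Dab2, an endocytic adaptor, had log2 differences of -0.04 and 0.04. Of 20 epiblast and primitive streak genes 0 stood apart, 5 were positive and the median was -0.26. Over all autosomal genes tested, 51.5% were positive and the median was 0.01. Pou5f1, a pluripotency factor, was at 44420, 31746, 29640.4 and 36670 in the globin-rich and at 48798, 56685, 43784 and 38544 in the globin-poor embryos, and these overlapped. Dnmt3b, a DNA methyltransferase, and Lefty2, a Nodal antagonist, had log2 differences of 0.00 and 0.15.

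The immediate early and heat shock list, which reads the handling of tissue, held 1 gene of 15 that stood above. That count is near the 1.99% of all autosomal genes tested and is not a result about the list. Fos was at 514, 375, 353 and 336, then 232, 1136, 462 and 344, and then 51.2, 125, 252 and 4.14, with a limma adjusted p of 0.738. The abundant chaperones Hspa8, Hsph1 and Dnajb1 had log2 differences of -0.04, -0.08 and -0.14.

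**Figure D3:**
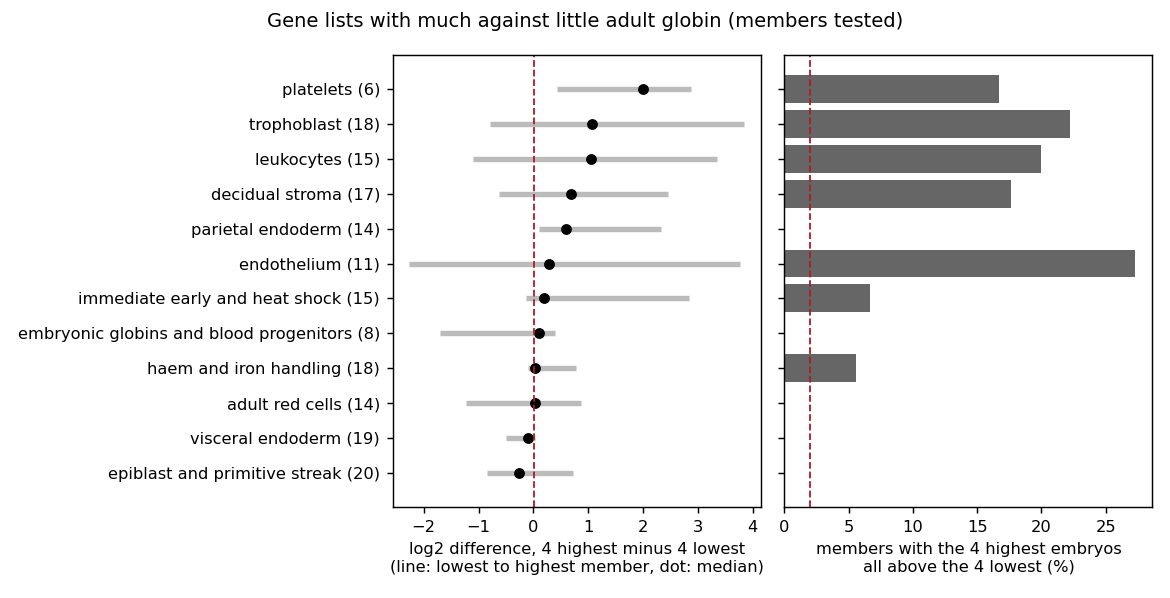
The 12 gene lists compared between the 4 globin-rich and the 4 globin-poor embryos: left, the log2 difference with a line from the lowest to the highest member, a dot for the median and a dashed line for the median of all genes; right, the percentage of tested members that stand above, with a dashed line at 1.99% for all genes. Platelets have the highest median at 1.99, with 6 genes, and visceral endoderm and epiblast have medians just below 0.

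Among genes with a mean of at least 100 whose classes did not overlap, the 8 with the largest positive log2 differences were Ctsk, Serpinb9g, 4930486L24Rik, Krt14, Prl6a1, Exoc3l4, Cdh5 and Ceacam9, all with a limma adjusted p between 0.554 and 0.776. Each has at least 1 globin-poor embryo at or near 0, so the size of its difference depends on the pseudocount. Ctsk, a lysosomal protease, was at 663, 356, 249.9 and 227 and at 0.99, 98.3, 105 and 0. Krt14, a keratin of stratified epithelia, was at 50.1, 178, 79.7 and 92.0 and at 0, 29.1, 30.6 and 0. Ceacam9, a cell-surface glycoprotein of placenta, was at 48.4 to 183 and at 0 to 36.6, and all 4 middle embryos, at 122 to 237, lay above the globin-poor ones.

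Under the same limits, the 8 largest in the other direction were Armc4, Acan, Tcp11, Ltbp3, Add2, Dnase1, Gm128 and Jmy, with limma adjusted p-values between 0.48 and 0.877. Add2, a beta-adducin of the membrane skeleton that red cells and brain express, was at 71.7, 52.2, 53.0 and 84.0, then 105, 165, 71.6 and 66.1, and then 153, 236, 187 and 148. It was lower in all globin-rich embryos, a log2 difference of -1.46 ± 0.37 (SE). Acan, the aggregate-forming proteoglycan of cartilage, was at 15.8 to 73.4 and at 86.0 to 332, and Jmy, an actin regulator, at 188 to 302 and at 317 to 603. No list held more than 1 of the genes that stood below.

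**Figure D4:**
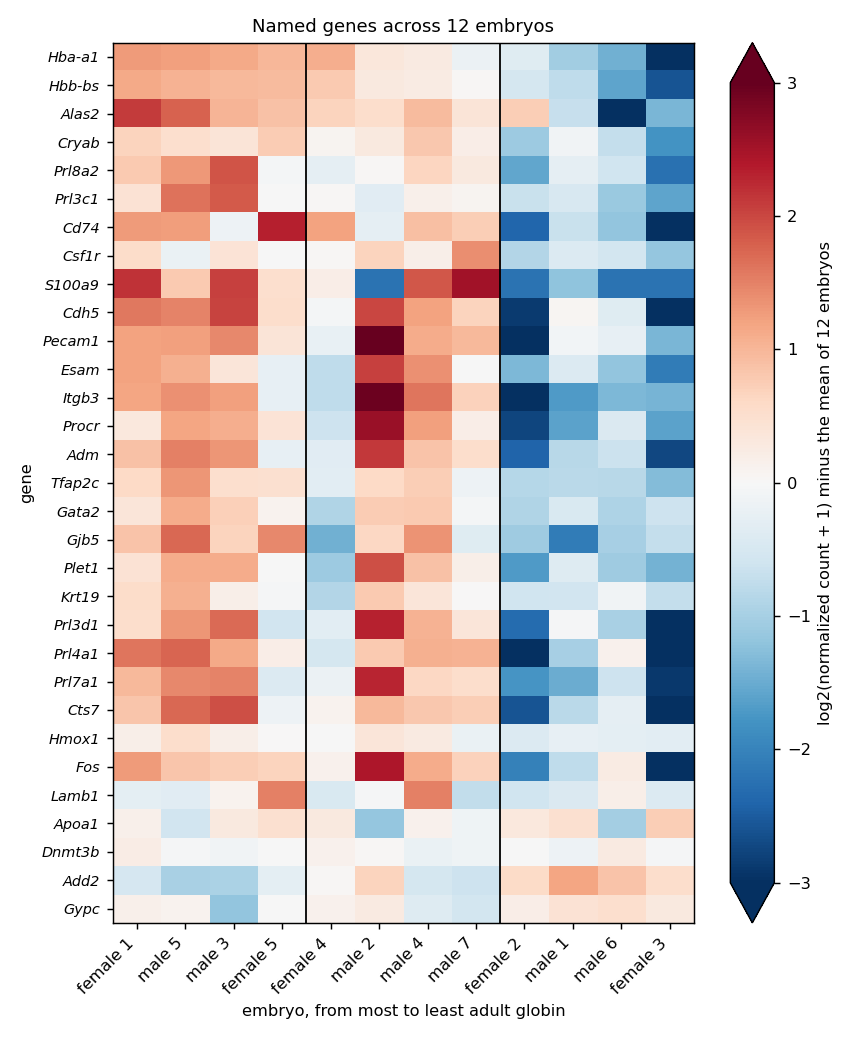
Log2(normalized count + 1) of named genes in the 12 embryos, each row minus its own mean over all 12, with embryos ordered from most to least adult globin and colours limited to 3 log2 units either way. Among the middle embryos, male 2 and male 4 resemble the globin-rich class over the genes that stand above, and female 4 resembles it less.

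The middle embryos did not enter the comparison that defines standing above. They did enter the filter on low values and the mean of at least 100, which are taken over all 12 embryos. Krt14 had class means of 99.96, 196.4 and 14.9 and reached a mean of 103.8 through its middle embryos. The shares below are therefore in part selected for. Over the 83 genes that stood above with a mean of at least 100 and a log2 difference over 1, male 2 exceeded all 4 globin-poor embryos in 76 (91.6%), male 4 in 76 (91.6%), male 7 in 67 (80.7%) and female 4 in 36 (43.4%). Over all genes tested, the same shares were 20.4% in male 2, 19.5% in male 4, 22.8% in male 7 and 18.3% in female 4. The 83 genes were chosen for low values in the globin-poor embryos, so an embryo unrelated to globin would often exceed them too, and the shares are a description. Female 4 had the most globin of the 4 middle embryos, with Hba-a1 at 2960, and the lowest share. Male 2, with Hba-a1 at 1772, also exceeded all 4 globin-rich embryos in 26 of the 83 genes (31.3%). Within the middle class, therefore, the order by globin was not the order by these genes. A slope over all 12 embryos gave 0 genes past the adjusted threshold, with a smallest limma adjusted p of 0.302.

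Litter was uneven between the classes, with litters 3, 6 and 9 in the globin-rich and litters 2, 4 and 6 in the globin-poor one, so litter and globin cannot be told apart except in litter 6. There male 5 was globin-rich, and male 6 and female 3 were globin-poor; the log2 difference within this litter was 2.39 for Tfap2c, 2.72 for Prl8a2, 1.75 for Cryab and 0.83 for Hmox1. The direction of these is fixed by the classes that do not overlap. In litter 3, female 1 and male 3 were globin-rich and male 2 was in the middle class. There 31 of the 83 genes (37.3%) were higher in the globin-rich embryos, against 48.1% of all genes tested. In litter 9, female 5 was globin-rich and male 7 in the middle class. There 40 of the 83 (48.2%) were higher in female 5, against 49.7% of all genes tested. Hba-a1 itself differed by 0.87 and 1.18 on the log2 scale in these 2 litters. Of the genes above, Cryab was higher in the embryo with more globin in both litters, by 0.25 and 0.55, and Cd74 by 0.83 and 1.60, while Pecam1 was lower by -1.92 and -0.59 and Prl3d1 by -1.20 and -0.94. The share of the 83 genes was thus near that of all genes in litter 9 and below it in litter 3. These litters compare globin-rich with middle embryos and have 3 and 2 embryos.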

How the data were processed

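RNA of single embryos was sequenced in paired reads. The tools listed by the submitters' processing notes, without settings, are DESeq2 1.34.0, Salmon 1.5.2, STAR 2.7.7a and cutadapt 4.1, and the build is mm10. The authors deposited log2 values per embryo, whose floor of 10.4141 and shape fit a variance-stabilizing transformation, and a mean signal per gene on the scale of normalized counts. Inverting the transformation in closed form gave normalized counts. For 25183 of 25451 genes with a mean above 0 (98.95%), the mean regained in this way matched the authors' mean (relative tolerance 1e-06). Raw counts are not used here, so no count model was fitted. The deposited p-value columns of the authors' own comparison of sexes were not used.

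The 4 embryos with the highest and the 4 with the lowest mean of deposited Hba-a1 and Hbb-bs values were compared with limma 3.58.1 (mean-variance trend) in R 4.3.3 on log2(normalized count + 1). The test covered the 16372 autosomal genes that reached 10 normalized counts in 4 or more of 12 embryos, with two-sided p-values adjusted by Benjamini-Hochberg at 0.05. Hba-a1, Hbb-bs, Hba-a2 and Hbb-bt were left out. Fold changes on this scale understate changes of low genes. The script was tested on simulated data. Fragments were estimated by taking the most common low value of a library as 1 fragment. Chromosomes and coordinates came from GENCODE M21 on GRCm38, from 1.

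Named were, in each direction, the 8 largest differences among genes with a mean of at least 100 whose classes did not overlap; from each list, members that did not overlap and the 3 of highest level; and every detected red-cell gene tested, of which some are given by range. The 10 smallest p-values, the placental families and genes called in an alternative were added after seeing values. A few genes that these rules name are not reported here. The members and lists were chosen with earlier results of these data known. Each embryo was 1 animal. Numbers of female and male embryos are given within each sex and do not pair them. Alternatives were another pseudocount, filter, scale, centring, covariate, block, class size and leaving out each embryo.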

Additional observations from a re-analysis of the deposited data

Results flagged for a closer look

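Several single embryos stood far from the other 3 of their class. For normally distributed values, chance gives such a gap in about 1 in 20 groups of 4. That rate does not hold for Slc4a1, S100a9 and Serpinb9c, where the other 3 globin-poor embryos were all at 0. In the globin-rich class, male 5 was low for Lcp1 (2461) and high for Tfap2c (4888) and Hpcal4 (122), and male 3 was high for Il2rb (239). Female 5 was high for the basement-membrane genes Lamb1 (47035), Col4a1 (37114) and Sparc (26568), which moved together in that embryo. The middle embryo male 4 was high for the same genes (46852, 25147 and 24705), so this was not particular to female 5.

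In the globin-poor class, female 2 was high for Ltbp3 (263), male 6 was low for Fech (4340.4) and high for Slc4a1 (34.0), and female 3 was low for Gata1 (314) and Tfap2c (794) and high for Serpinb9c (30.0). Male 1 was low for Hspa8 (521522) and was the only embryo of its class with S100a9 above 0 (1.01).

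The difference between globin classes ran in opposite directions in the 2 sexes for Bpgm. The female difference minus the male difference was 0.35 on the log2 scale, with 2 embryos per sex and class. A test of sex by globin class with limma over 16372 genes had 0 genes past the adjusted threshold and 797 at an unadjusted p under 0.05, with a smallest adjusted p of 0.655.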

How the results depend on the processing

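In the comparison as reported, 0 genes passed the adjusted threshold. The count was 8 without the filter on low values (6 higher, 2 lower), 1 with a mean of at least 100 (higher), 16 with sex as a covariate (all higher) and 1 with 12 embryos in 3 classes (higher); the cause was not tested. It stayed at 0 with the other pseudocounts, the deposited log2 values, median centring, the litter block and each embryo left out, where the smallest limma adjusted p was 0.079 to 0.415. Genes standing above were 326 and standing below 208. They were 497 to 697 and 351 to 545 with each embryo left out, which sets fewer embryos to be ordered, and 162 and 114 for 5 against 4 embryos, chosen after seeing the data. The direction of the 52 named genes with separate classes is fixed by their choice in most settings and says nothing of stability. Of the other named genes, 24 changed direction in some of 21 settings.

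Replicate numbers are given within each sex and do not pair embryos: the same-numbered embryos of the 2 classes had deviations correlated at 0.0712 and -0.017. With the replicate block, 0 genes were higher and 0 lower. The litter block left 2 residual degrees of freedom. The 8 embryos and amplified fragments limit precision.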
